A study of Mus musculus with 10 samples.

Results

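The 9 genes described here (Jchain, Mzb1, Fkbp11, Derl3, Creld2, Xbp1, Pou2af1, Sdc1 and Tnfrsf17) serve the antibody-secreting programme of plasma cells, and were taken by symbol from the 53656 genes of the count tables. All 9 were found. They were measured by RNA sequencing in CD4 T cells of the SMARTA line, which carry a transgenic receptor for the GP61 peptide of lymphocytic choriomeningitis virus. TOX KO cells (n = 6 libraries) were sorted from the tumour-draining lymph node as CD4+, Ly5.1+, Ly5.2- and low for PD1, LAG3 and CD39. They were compared with TOX WT cells (n = 4 libraries), sorted from the same site as CD4+, Ly5.1+, Ly5.2+ and high for PD1, LAG3 and CD39. Naive cells of both genotypes had been given to B6 hosts that were treated with cytoxan (cyclophosphamide) and bore B16-GP61 melanoma, and were recovered 11 days after transfer. Genotype, sort gate and congenic marker changed together between the groups, so their parts cannot be told apart. The labels give neither the age of the hosts nor how the TOX gene was removed, and they name replicates without naming the animals, so p-values measure only how these libraries vary, and some of that may be technical.

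Plasma cells are the end stage of the B cell lineage and release antibody in bulk. To do so they enlarge the endoplasmic reticulum (ER), where antibody chains are folded, joined and checked. The transcription factor XBP1, made active when the sensor IRE1 splices its mRNA, drives much of that enlargement, and its target genes encode chaperones, disulphide isomerases and the machinery that removes misfolded chains. T cells are not known to make antibody, but the ER stress part of the programme is used by all secretory cells. Among the 9 genes, Jchain encodes the chain that joins IgM and IgA into polymers and Mzb1 a chaperone of antibody assembly. Fkbp11 encodes a peptidyl-prolyl isomerase of the ER, Derl3 a protein of ER-associated degradation and Creld2 an ER stress-induced disulphide isomerase. Tnfrsf17 encodes BCMA, the receptor for the survival factor APRIL, Sdc1 encodes syndecan-1 (CD138), and Pou2af1 encodes a coactivator of octamer-binding factors in B cells that T follicular helper cells also express.

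The libraries held 36028980 to 55784453 counts in KO and 31939816 to 45481478 counts in WT. Tox itself averaged 30.9 ± 20.8 CPM (counts relative to the TMM-scaled size of the library) in KO and 236 ± 87.9 CPM in WT (SD, n = 6 and 4), with no overlap. Markers of the labelled cell type were present in both groups. The summed level of 12 T cell genes was 24043 to 37583 CPM in KO and 11684 to 25006 CPM in WT. That sum does not show that a library held T cells alone. Immunoglobulin genes took 0.0835 to 0.187% of counts in KO and 0.815 to 16.7% in WT. The summed level of 17 B cell identity genes, none of them at 0 throughout KO, was 103 to 505 CPM in KO and 4162 to 12628 CPM in WT, and 12 of the 17 were lower in KO (edgeR adjusted p under 0.05). The library names carry numbers, and the labels neither say what these stand for nor mark a cut in them. Split into 1 to 3 (3 KO, 1 WT) and 4 to 8 (3 KO, 3 WT), the libraries also differed. Of 14214 tested genes, 11.2% were higher in every library numbered 1 to 3 than in any numbered 4 to 8, and 7.56% were lower.

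Jchain, Mzb1, Fkbp11 and Pou2af1 were lower in KO, and Xbp1, Creld2 and Derl3 were not called in either direction. By edgeR's quasi-likelihood test with p-values adjusted over all genes, 4 of the 9 genes were lower, 0 were higher and 4 did not pass. Tnfrsf17, with no count in KO or in WT replicate 1, was removed by the filter on low counts and was not tested. Among all tested genes 2.70% were lower and 0.429% were higher. The count of 0 higher genes was also 0 at an unadjusted p under 0.05, with DESeq2 and with limma-voom. The median log2 fold change of the 8 tested members was -3.49, against -0.12 over all tested genes. Jchain, Mzb1, Fkbp11, Pou2af1 and Sdc1 had no KO library as high as any WT library, a pattern that 6.31% of tested genes showed, and 0 members had the opposite pattern, which 2.59% of tested genes showed. In library numbers 4 to 8 alone Jchain, Mzb1 and Pou2af1 were again lower and 0 members higher, against 7.18% and 0.842% of all tested genes. Fkbp11 was also called lower there. With 22 counts or fewer in each of those 3 KO libraries, it enters that fit mainly through its WT counts. Sdc1 and Tnfrsf17, with no count in those 3 KO libraries, enter that fit only through their WT counts, and nothing is read from their calls there. In bulk libraries, fewer cells of a type and less RNA per cell cannot be told apart.

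**Figure D1:**
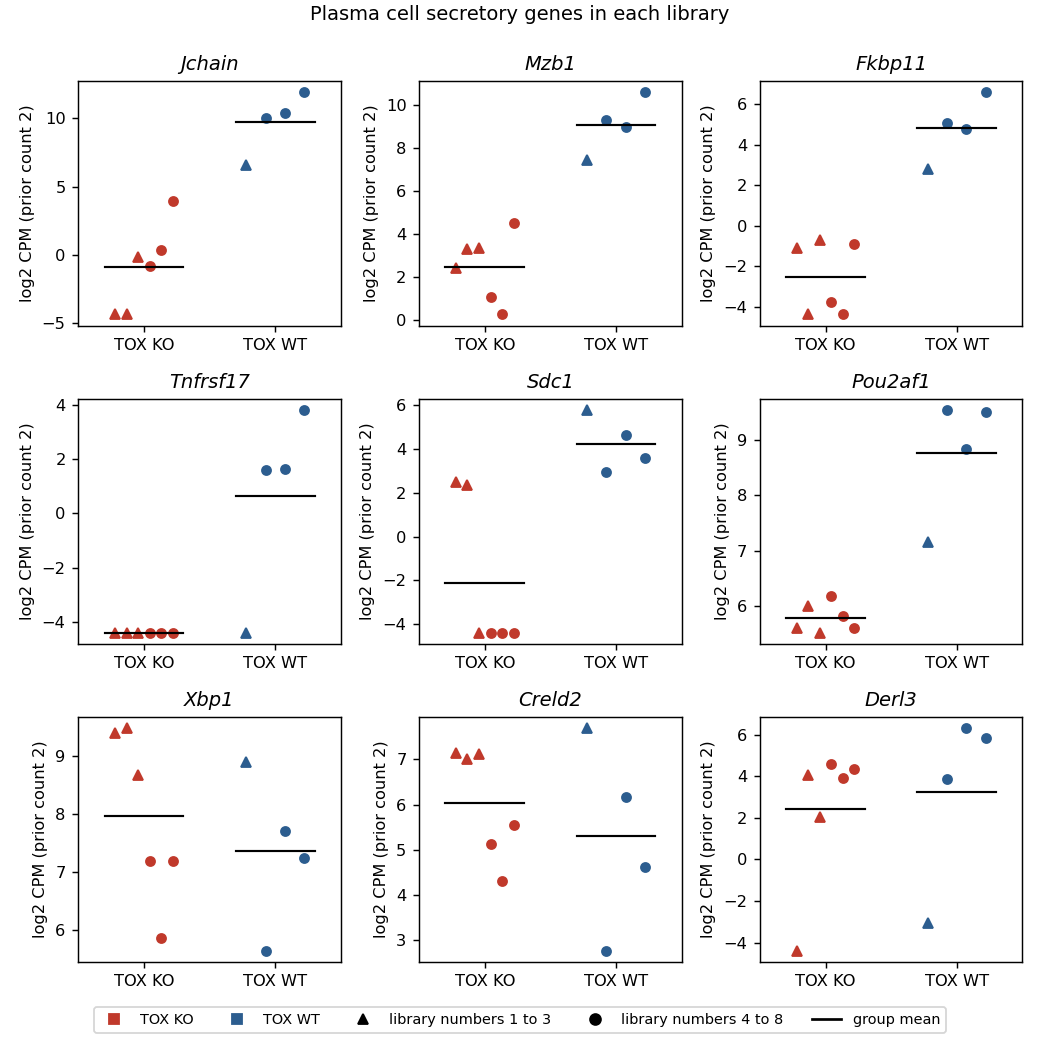
Level of each of the 9 genes in every library, as log2 CPM with a prior count of 2, with KO left of WT, triangles for library numbers 1 to 3, circles for 4 to 8, and a bar at the group mean. Jchain, Mzb1, Fkbp11, Sdc1 and Pou2af1 do not overlap between the groups, while Xbp1 and Creld2 separate by library number (Xbp1 411 to 714 CPM in numbers 1 to 3 and 49.8 to 208 CPM in numbers 4 to 8).

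Levels per length of transcript showed how the order of the 9 genes differed between the groups. In RPKM, which is CPM divided by the exon length in kilobases, the order in KO began with Xbp1 at 110.2 ± 88.2, Creld2 at 62.3 ± 41.6 and Pou2af1 at 22.1 ± 4.11 (mean ± SD, n = 6). These 3 means do not hold as an order in each library, since Pou2af1 was above Creld2 in KO replicate 4 (28.6 and 25.6 RPKM) and above both Creld2 and Xbp1 in KO replicate 5 (22.3, 14.4 and 17.8 RPKM). Below them in KO stood Mzb1 at 9.28 ± 8.63 RPKM and Derl3 at 6.70 ± 4.71 RPKM, which did not differ beyond their spread, then Jchain at 1.19 ± 2.43 RPKM. Sdc1, Fkbp11 and Tnfrsf17 came last in KO, at 0.469, 0.0923 and 0 RPKM. In WT the order began with Mzb1 at 779 ± 642 RPKM, Jchain at 639 ± 647 RPKM and Pou2af1 at 202 ± 109 RPKM (n = 4), and Mzb1 and Jchain did not differ beyond their spread. Xbp1 at 68.1 ± 55.9 RPKM and Creld2 at 56.6 ± 65.9 RPKM followed in WT and did not differ beyond their spread. Derl3 and Fkbp11 came next in WT, at 18.7 and 15.1 RPKM, and Sdc1 and Tnfrsf17 were last, at 6.49 and 6.09 RPKM. The WT means do not hold as an order in each library either. In WT replicate 1 Creld2 (151 RPKM) and Xbp1 (146 RPKM) were above both Pou2af1 (56.3 RPKM) and Jchain (37.6 RPKM).

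Jchain, the joining chain of polymeric antibody (GRCm38 chromosome 5, 88519809 to 88527891, minus strand), had the largest fall of the tested members. It ranged over 0, 0.687 and 15.4 CPM (lowest, median and highest) in the 6 KO libraries, against 94.7, 1078, 1342 and 3915 CPM in WT replicates 1 to 4. The means were 3.00 ± 6.11 CPM in KO and 1608 ± 1629 CPM in WT (SD, n = 6 and 4), and the groups did not overlap. KO replicates 1 and 2 had no Jchain count at all, and KO replicate 6 held 686 of the 808 Jchain counts of the KO group. Its log2 fold change was -9.06 (SE 1.99, edgeR adjusted p = 0.036). Leaving out KO replicate 1, 2, 3, 4 or 5 or WT replicate 2 or 4 ended the call, with an edgeR adjusted p up to 0.11, and leaving out any of the other 3 libraries kept it. Within library numbers 4 to 8 it was called (-8.46, edgeR adjusted p = 0.026), and within numbers 1 to 3, where a lone WT library is assumed to vary like the KO libraries, it was not (-8.24, 0.10).

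Mzb1, which assists antibody assembly in the ER together with the chaperone GRP94 (chromosome 18, 35647266 to 35649367, minus strand), showed the same split of the groups with a tighter error. KO libraries held 1.14, 7.40 and 22.4 CPM (lowest, median and highest), and WT replicates 1 to 4 held 172, 625, 497 and 1528 CPM. The means were 8.40 ± 7.81 CPM in KO and 705 ± 581 CPM in WT, again with no overlap. Each KO library had some Mzb1 counts, 52 at the least. The log2 fold change was -6.39 (SE 0.92, edgeR adjusted p = 0.0053), called in all 10 fits without 1 library (adjusted p 0.0033 to 0.019) and in library numbers 4 to 8 alone (-6.63, 0.031). In numbers 1 to 3, where the WT side is a single library assumed to vary like the KO libraries, it was -4.33 (0.041). Hsp90b1, which encodes GRP94, averaged 28.2 ± 21.3 CPM in KO and 178 ± 142 CPM in WT, for a log2 fold change of -2.66 that missed the threshold (edgeR adjusted p = 0.13). Its exons overlap 3 other annotated genes, 1 of them on the opposite strand, so its counts are uncertain.

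Fkbp11, the ER isomerase (chromosome 15, 98724366 to 98728198, minus strand), was near 0 in every KO library. KO libraries held 0, 0.225 and 0.553 CPM (lowest, median and highest), or at most 30 counts, and WT replicates 1 to 4 held 6.90, 33.0, 27.3 and 96.5 CPM. With means of 0.250 ± 0.268 CPM in KO and 40.9 ± 38.7 CPM in WT, no KO library reached the lowest WT library. Its log2 fold change was -7.34 (SE 1.43, edgeR adjusted p = 0.021). The call was lost without KO replicate 1 (edgeR adjusted p = 0.053), WT replicate 2 (0.051) or WT replicate 4 (0.085), and in library numbers 1 to 3 alone (-4.35, 0.28), and it held in numbers 4 to 8 alone (-8.13, 0.025). Jchain, Mzb1 and Fkbp11 shared 1 order of libraries at the ends of the WT group, with WT replicate 4 highest and WT replicate 1 lowest for all 3. The immunoglobulin share had the same ends, at 16.7% in WT replicate 4 and 0.815% in WT replicate 1. Fkbp2, another ER member of the isomerase family, averaged 27.6 ± 4.03 CPM in KO and 71.7 ± 30.3 CPM in WT, with log2 fold change -1.38 (edgeR adjusted p = 0.043), a call that 8 of the 10 leave-one-out fits did not give (adjusted p up to 0.22).

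The mRNAs of both plasma cell surface proteins had no count in most KO libraries. Tnfrsf17, which encodes BCMA (chromosome 16, 11313812 to 11320074, plus strand), had no count in any KO library, against 0, 2.99, 3.03 and 13.8 CPM in WT replicates 1 to 4. With 711 counts over the WT group, the level in KO was at least 421-fold lower, taking 3 counts over all KO libraries as the floor. WT replicate 1 had no count either, so the groups overlapped, and WT replicate 4 held 492 of the 711 counts. Without WT replicate 4 the bound was 170.1-fold. The other receptors for the same ligands differed. Tnfrsf13c, the BAFF receptor of mature B cells, averaged 4.24 ± 3.44 CPM in KO and 109 ± 50.8 CPM in WT, with log2 fold change -4.69 (edgeR adjusted p = 0.046), a call that 8 of the 10 leave-one-out fits did not give (adjusted p up to 0.11). Tnfrsf13b, which encodes TACI, averaged 103 ± 21.9 CPM in KO and 139 ± 132 CPM in WT, for a log2 fold change of -0.43 that missed the threshold (edgeR adjusted p = 0.72).

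Sdc1, the syndecan used to identify plasma cells (chromosome 12, 8771323 to 8793715, plus strand), was found in 2 of the 6 KO libraries. KO replicates 1 and 2 held 5.61 and 5.11 CPM and the other 4 KO libraries held 0, against 54.6, 7.75, 24.7 and 11.9 CPM in WT replicates 1 to 4. Unlike Jchain, Mzb1 and Fkbp11, Sdc1 was highest in WT replicate 1. The log2 fold change of -3.79 missed the threshold (SE 1.93, edgeR adjusted p = 0.33). It passed with limma-voom (adjusted p = 0.022). Sdc4, a syndecan of many cell types, averaged 3.88 ± 2.71 CPM in KO and 96.7 ± 63.3 CPM in WT, with log2 fold change -4.64 (edgeR adjusted p = 0.026), a call that 6 of the 10 leave-one-out fits did not give (adjusted p up to 0.079).

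Pou2af1, the coactivator (chromosome 9, 51213708 to 51240080, plus strand), fell to a level that was even across KO libraries and well above 0. KO replicates 1 to 6 held 49.2, 64.3, 46.2, 73.0, 56.8 and 49.0 CPM, from 1736 or more counts each, and WT replicates 1 to 4 held 143, 739, 456 and 717 CPM. The SD was 10.5 CPM around a KO mean of 56.4 CPM, the smallest relative spread of the 9 genes in KO. Its log2 fold change was -3.19 (SE 0.40, edgeR adjusted p = 0.0030), called in all 10 fits without 1 library (adjusted p 1.5e-04 to 0.016) and within library numbers 4 to 8 (-3.36, 0.0061). Within numbers 1 to 3, with 1 WT library, it was -1.39 (0.097). Its octamer-binding partners were not called. Pou2f1 averaged 6.17 ± 1.98 CPM in KO and 5.51 ± 6.24 CPM in WT (edgeR adjusted p = 0.95), with exons that overlap Cd247 on the opposite strand. Pou2f2 averaged 6.85 ± 1.98 CPM in KO and 4.67 ± 3.73 CPM in WT (edgeR adjusted p = 0.64).

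Xbp1, the regulator of the programme (chromosome 11, 5520659 to 5525893, plus strand), was not called lower in KO. It held 674, 714, 411, 146, 57.7 and 145 CPM in KO replicates 1 to 6, and 475, 49.8, 208 and 151 CPM in WT replicates 1 to 4. The groups overlapped throughout, and the log2 fold change was 0.69 (SE 0.77, edgeR adjusted p = 0.68). In library numbers 4 to 8 alone it turned to -0.20 (0.85), and within numbers 1 to 3 it was 0.37 (0.56). The 2 library sets did not overlap, at 411 to 714 CPM in numbers 1 to 3 (3 KO, 1 WT) and 49.8 to 208 CPM in numbers 4 to 8. Of all tested genes, 11.2% were higher in every library of the first set in the same way. Counts per gene do not separate the spliced from the unspliced Xbp1 mRNA. Ern1, which encodes IRE1, averaged 0.892 ± 1.04 CPM in KO and 4.74 ± 3.84 CPM in WT, for a log2 fold change of -2.41 that missed the threshold (edgeR adjusted p = 0.46).

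Creld2, induced in ER stress (chromosome 15, 88819646 to 88826683, plus strand), had nearly the same profile as Xbp1. It held 141, 128, 139.99, 35.0, 19.7 and 47.2 CPM in KO replicates 1 to 6, and 206, 6.78, 71.9 and 24.5 CPM in WT replicates 1 to 4. The log2 fold change was 0.14 (SE 0.85, edgeR adjusted p = 0.95), and it turned to -0.29 (0.85) when libraries were scaled to T cell receptor complex genes, which moved the median of all genes to -0.92. As with Xbp1, no library numbered 1 to 3 overlapped one numbered 4 to 8, with 128 to 206 CPM against 6.78 to 71.9 CPM. Of all tested genes, 11.2% were likewise higher in every library numbered 1 to 3. After centring each gene on its own mean, Creld2 and Xbp1 differed by a root mean square of 0.53 on the log2 scale over the 10 libraries, the smallest value of any pair of the 8 tested members. The next smallest was 1.10, between Mzb1 and Fkbp11. The ranking covers pairs of members only, so the closeness is not shown to be particular to Creld2 and Xbp1. Xbp1 had 2.93 to 5.60 counts per Creld2 count in KO and 2.31 to 7.34 in WT.

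**Figure D2:**
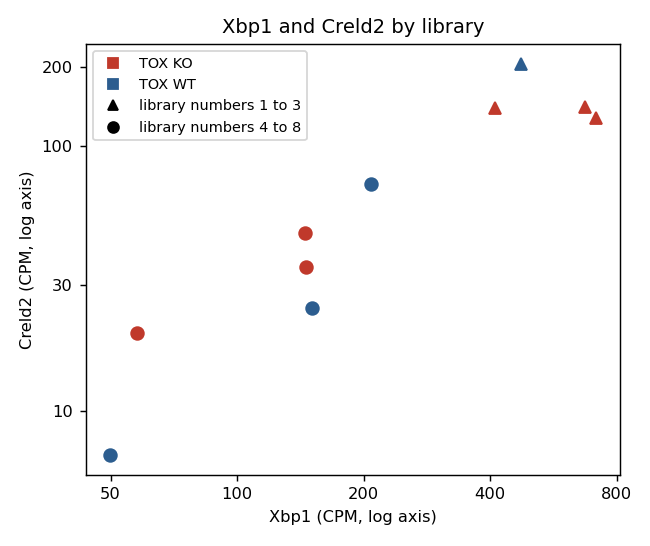
Creld2 against Xbp1 in CPM, both on log axes, 1 point per library, red for KO, blue for WT, triangles for library numbers 1 to 3 and circles for 4 to 8. The 4 libraries numbered 1 to 3 lie at 411 CPM of Xbp1 or more and 128 CPM of Creld2 or more, apart from the other 6, and both genotypes occur in each cloud.

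Derl3, the member of the derlin family that secretory cells use for ER-associated degradation (chromosome 10, 75893413 to 75895941, plus strand), overlapped between the groups. It held 0, 16.7, 4.13, 24.2, 15.1 and 19.9 CPM in KO replicates 1 to 6, and 0.0724, 14.4, 78.6 and 56.3 CPM in WT replicates 1 to 4. KO replicate 1 had no count and WT replicate 1 had 3, although both had ample Xbp1 (674 and 475 CPM). The log2 fold change was -1.48 (SE 1.43, edgeR adjusted p = 0.63), with -1.30 (0.24) in library numbers 4 to 8 and 6.56 (0.39) in numbers 1 to 3. Its relatives with broader expression did not pass either. Derl1 averaged 281 ± 143 CPM in KO and 118 ± 99.2 CPM in WT, with log2 fold change 1.26 (edgeR adjusted p = 0.33), and Derl2 averaged 147 ± 29.3 CPM in KO and 194 ± 39.9 CPM in WT (-0.40, 0.41).

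Promoter sequence gave the 9 genes a feature that the choice of members did not use. The windows searched were the 250 bases before each annotated start in RefSeq on GRCm38.p6, read in the direction of the gene, with both strands searched. Of the 9 genes 8 were read, Fkbp11 with 2 starts, and Mzb1 was not searched. The ER stress response element (ERSE), a CCAAT box, 9 free bases and CCACG, is the site through which ATF6 and XBP1 act on chaperone genes. It was found as an exact match in Creld2 and Derl3 and in 0.113% of all 32851 windows. The core ACGTG of XBP1 sites was found in Derl3, Jchain and Pou2af1 and in 16.6% of all windows, and the longer form TGACGTG, which contains it, in Pou2af1 and in 1.65%. Neither the ERSE-II element (in 0.0304% of windows) nor the octamer core TTTGCAT (in 4.12%) was found in any of the 8 genes read. That says only that these letters are not in these windows. A match is a description of the letters and not evidence of binding. The 3 windows with an ERSE or the longer XBP1 core follow, and they belong to Creld2 and Derl3 (not called) and Pou2af1 (lower in KO). Capitals mark the matches, and an ERSE on the opposite strand reads CGTGG, 9 bases, ATTGG.
Creld2: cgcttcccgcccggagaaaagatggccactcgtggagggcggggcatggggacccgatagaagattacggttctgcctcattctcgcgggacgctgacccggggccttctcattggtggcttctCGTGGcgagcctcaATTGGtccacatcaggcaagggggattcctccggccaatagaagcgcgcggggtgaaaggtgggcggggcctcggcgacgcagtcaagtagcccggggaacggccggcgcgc
Derl3: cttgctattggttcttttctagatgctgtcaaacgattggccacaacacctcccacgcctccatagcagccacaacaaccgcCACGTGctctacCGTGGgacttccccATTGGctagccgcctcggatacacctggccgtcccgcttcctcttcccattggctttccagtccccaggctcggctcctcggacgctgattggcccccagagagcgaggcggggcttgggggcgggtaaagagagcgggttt
Pou2af1: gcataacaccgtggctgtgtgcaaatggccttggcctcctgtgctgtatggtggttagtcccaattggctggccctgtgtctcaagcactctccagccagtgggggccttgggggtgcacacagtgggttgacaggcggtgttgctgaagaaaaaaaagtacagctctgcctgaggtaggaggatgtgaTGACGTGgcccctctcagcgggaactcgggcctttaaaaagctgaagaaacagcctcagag
The windows lie at chr15:88819396-88819645 (plus strand) for Creld2, chr10:75893148-75893397 (plus strand) for Derl3 and chr9:51213440-51213689 (plus strand) for Pou2af1. The ERSE spans bases -126 to -108 from the start in Creld2 and -156 to -138 in Derl3, and in Derl3 the ACGTG core, read on both strands as CACGTG, lies just before it at -168 to -163. In Pou2af1 TGACGTG lies at -61 to -55. Other genes of the lists with an exact ERSE were Hspa5, Calr, Canx, Hsp90b1, Pdia6, Dnajc3 and Syvn1, and none of them was called between KO and WT.

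Whether the members fell as much as B cell genes was tested by scaling every library to its summed counts of the 17 B cell identity genes. Jchain was lower in KO relative to that sum (log2 fold change -4.07, SE 1.49, edgeR adjusted p = 0.019), so it fell further than the sum did. This was not particular to Jchain. Of 12 immunoglobulin constant genes, 5 were called lower on this scale and 1 higher, with a median of -2.68. Mzb1 (-1.64, SE 0.76, 0.054), Fkbp11 (-2.60, SE 1.35, 0.081) and Sdc1 (0.49, SE 1.83, 0.80) were not called apart from the B cell sum. Fkbp11 was called lower in library numbers 4 to 8 alone (-3.23, edgeR adjusted p = 0.028), with 22 counts or fewer in each of those KO libraries. Pou2af1 was higher relative to the sum (2.13, SE 0.70, edgeR adjusted p = 0.011), as were Derl3 (3.89, SE 1.62, 0.035), Creld2 (4.24, SE 1.12, 0.0029) and Xbp1 (4.93, SE 1.05, 6.4e-04). On this scale 85.4% of all tested genes were higher in KO and 0.732% were lower, so a gene called higher on it is not set apart by that call. The call on Jchain was lost without WT replicate 4 (-2.96, edgeR adjusted p = 0.078), and that on Derl3 without KO replicate 5 (0.079), WT replicate 2 (0.080) or WT replicate 4 (0.050). Mzb1 was called lower without KO replicate 6 (-2.26, 0.015) or WT replicate 1 (-1.87, 0.029).

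**Figure D3:**
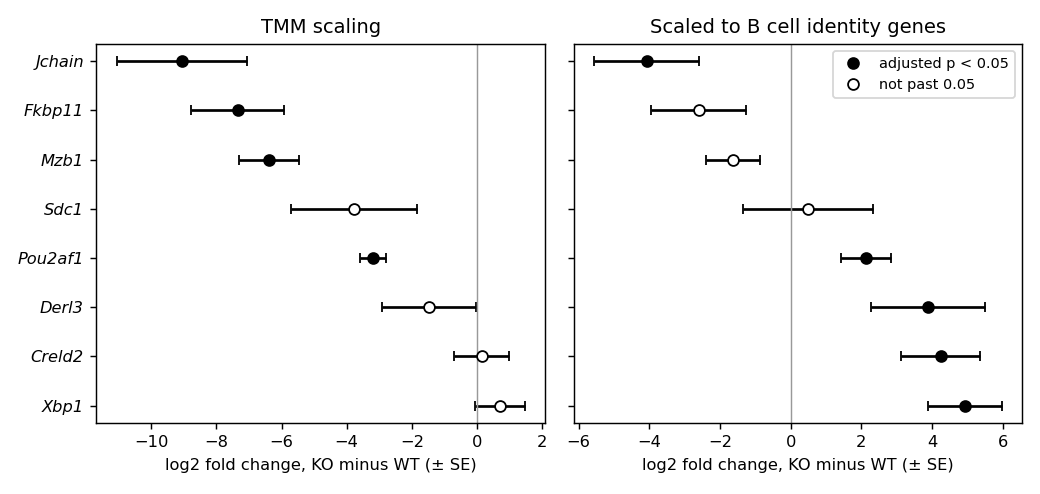
Log2 fold change, KO minus WT, of the 8 tested genes with bars of 1 SE, after TMM scaling on the left and after scaling to 17 B cell identity genes on the right, with filled points for an edgeR adjusted p under 0.05. Jchain is at -9.06 and -4.07, Pou2af1 changes side from -3.19 to 2.13, and Xbp1 is at 0.69 and 4.93.

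The ratio to Igkc, the kappa light chain gene and the most abundant immunoglobulin constant gene in WT, is given as a description. Igkc averaged 116 ± 98.2 CPM in KO and 20706 ± 17683 CPM in WT, with log2 fold change -7.49 (edgeR adjusted p = 0.0029). Per 1000 Igkc counts there were 36.2 to 117 Mzb1 counts in KO and 27.1 to 63.1 in WT, and 0 to 9.57 Fkbp11 counts in KO and 1.49 to 2.54 in WT. The ranges of both genes overlapped between the groups. For Jchain the ratio was 0 to 55.3 in KO and 34.8 to 86.9 in WT, with KO replicates 5 and 6 at 49.3 and 55.3 inside the WT range and the other 4 KO libraries at 9.16 or less. For Pou2af1 it was 175 to 2317 in KO and 15.9 to 52.7 in WT, with no overlap. The same held for 72.7% of tested genes other than Igkc, so it does not set Pou2af1 apart. Ighm, the constant gene of IgM, behaved like Pou2af1 in having an even level in KO, at 922 ± 78.2 CPM, against 6586 ± 3542 CPM in WT, with log2 fold change -2.84 (edgeR adjusted p = 0.0031).

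**Figure D4:**
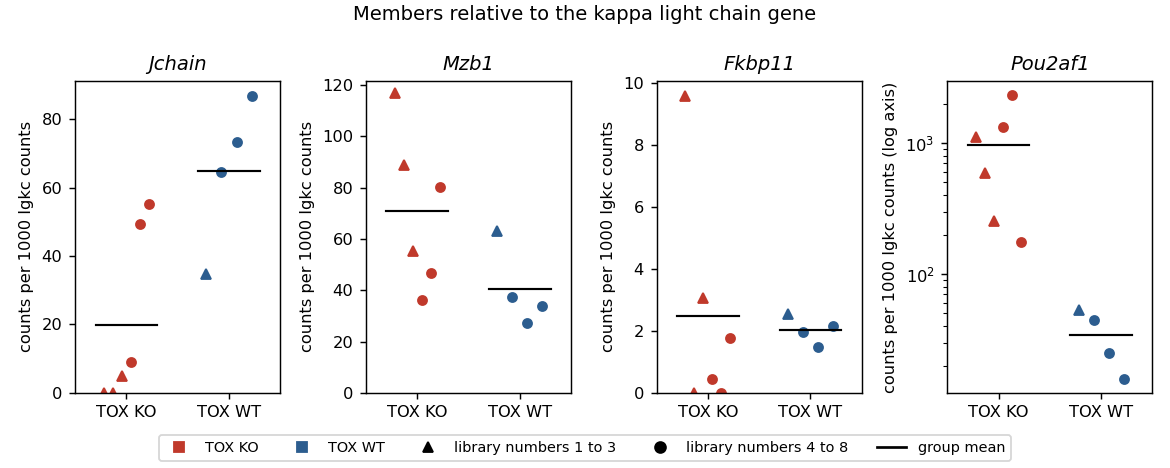
Counts of Jchain, Mzb1, Fkbp11 and Pou2af1 per 1000 counts of Igkc in each library, with KO left of WT, the group mean as a bar and a log axis for Pou2af1 only. Mzb1 and Fkbp11 overlap between the groups (36.2 to 117 in KO and 27.1 to 63.1 in WT for Mzb1), and Pou2af1 does not (175 to 2317 in KO and 15.9 to 52.7 in WT).

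The general secretory machinery showed few calls. Among all tested genes 2.70% were lower and 0.429% were higher. In lists this small, few or no calls are near those shares, so the counts do not set these lists apart. Of 19 ER chaperones and isomerases 2 fell (Ero1lb and Fkbp2) and 0 rose, with a median log2 fold change of -0.35. Ero1lb, an ER oxidase, averaged 7.21 ± 2.05 CPM in KO and 26.2 ± 4.03 CPM in WT, with log2 fold change -1.86 (edgeR adjusted p = 0.021), a call that 4 of the 10 leave-one-out fits did not give (adjusted p up to 0.079). Hspa5, which encodes the chaperone BiP, averaged 567 ± 209.8 CPM in KO and 587 ± 346 CPM in WT, with log2 fold change -0.05 (edgeR adjusted p = 0.97). Of 26 genes of ER entry, signal cleavage, glycosylation and exit, edgeR called 0 (2 lower and 1 higher at an unadjusted p under 0.05, 1 lower with DESeq2, 0 with limma-voom), and their median was -0.29. Of 15 genes of ER-associated degradation, edgeR called 0 (0 at an unadjusted p under 0.05, 0 with DESeq2 and 0 with limma-voom), with a median of 0.32. Of 12 sensors and effectors of the unfolded protein response, edgeR called 0 (1 lower and 1 higher at an unadjusted p under 0.05, 1 lower with DESeq2, 0 with limma-voom), with a median of 0.15. Scaled to T cell receptor complex genes, 6 chaperone genes, 6 entry and exit genes, 1 degradation gene and 2 sensor or effector genes were called lower. On that scale 1862 of all 14214 tested genes were called lower and the median of all genes was -0.92. These counts are therefore not read as a result about the ER lists.

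Genes of plasma cells outside the 9 were mixed as well. Of 13 such genes Cd38, Eaf2 and Slamf7 fell, 0 rose (1 at an unadjusted p under 0.05, 1 with DESeq2 and 1 with limma-voom) and the median was -1.32. Cd38, an ectoenzyme of plasma cells and other lymphocytes, averaged 9.72 ± 2.90 CPM in KO and 276 ± 184 CPM in WT, with log2 fold change -4.83 (edgeR adjusted p = 0.0031) and was called in all 10 fits without 1 library. The calls on Eaf2 and Slamf7 were lost in 7 and 6 of those fits, each with an adjusted p up to 0.13. Prdm1, which encodes BLIMP1, the repressor that commits B cells to secretion and that effector T cells also use, averaged 0.396 ± 0.490 CPM in KO and 20.7 ± 17.1 CPM in WT without overlap, for a log2 fold change of -5.70 that missed the threshold (edgeR adjusted p = 0.093). In the other direction Pim2, a survival kinase, averaged 559.9 ± 222 CPM in KO and 70.0 ± 70.0 CPM in WT without overlap, for a log2 fold change of 3.00 that missed the threshold (edgeR adjusted p = 0.083). Irf4, a regulator of both lineages, averaged 138 ± 65.5 CPM in KO and 137 ± 98.9 CPM in WT, with log2 fold change 0.01 (edgeR adjusted p = 0.99). Of 12 immunoglobulin constant genes 10 fell and 0 rose (0 at an unadjusted p under 0.05, 0 with DESeq2 and 0 with limma-voom), with a median of -7.58.

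**Figure D5:**
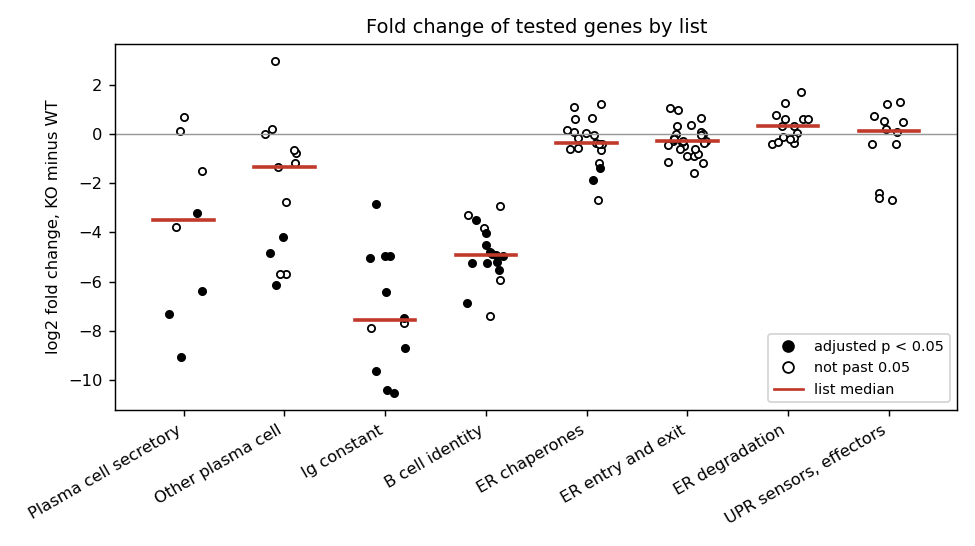
Log2 fold change, KO minus WT, of each tested gene in 8 lists, with filled points for an edgeR adjusted p under 0.05 and a red bar at the list median. The plasma cell secretory genes (median -3.49) spread from the range of the B cell genes (median -4.92) to that of the ER lists (medians -0.35 to 0.32).

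Markers of several other cell types differed between the groups. Myeloid markers, none at 0 throughout KO, summed to 5.18 to 239.8 CPM in KO and 1498 to 7629 CPM in WT, with 4 of 15 lower. Markers of dendritic cells, which include plasmacytoid cells that can express Mzb1, summed to 73.7 to 134 CPM in KO and 140.03 to 246 CPM in WT. Of 10 tested markers 1 was called lower (Cox6a2, not called in 8 of the 10 leave-one-out fits), and Clec9a and Cd209a were at 0 in all KO libraries. Most of the KO sum was Bst2, which did not differ (100.3 ± 22.9 CPM in KO and 99.4 ± 32.4 CPM in WT). The fold change was negative for 9 of the 10 tested markers, with a median of -4.02. The sum of B cell markers given above differed in the same direction. Natural killer cell markers summed to 168 to 273 CPM in KO and 14.9 to 68.4 CPM in WT. Nearly all of the KO sum was Klrb1c, which encodes NK1.1 (224 ± 38.7 CPM in KO and 32.0 ± 20.1 CPM in WT). Klrb1c was called higher (log2 fold change 2.81, edgeR adjusted p = 0.012). The other 3 of the 4 tested markers had negative fold changes and were not called, and the list median was -3.47. No stromal gene was called, with sums of 172 to 377 CPM in KO and 81.8 to 359 CPM in WT. The part of such cells in the falls of Jchain, Mzb1 and Fkbp11 was not tested. The genes whose profile over the 10 libraries was closest to the mean of the 8 tested members were Cd24a, Alox5ap, Lat2, Rasgef1b and Nckap1, at a root mean square difference of 0.56 to 0.62 on the log2 scale. Cd24a, a surface glycoprotein of B cells and other leukocytes, averaged 4.18 ± 2.10 CPM in KO and 120.4 ± 60.0 CPM in WT. The members themselves lay farther from that mean, at 0.93 for Pou2af1 to 3.94 for Jchain, so the mean profile describes none of them closely.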

How the data were processed

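RNA was measured in 10 libraries, 6 TOX KO and 4 TOX WT. Per the labels' protocols, cells were sorted into Trizol LS, RNA was amplified with SMART-seq V4 and libraries were sequenced in paired-end runs. The deposited tables hold counts of read pairs for each gene name from featureCounts 1.6.2, which the authors ran with GENCODE M17 gene models (GRCm38.p6), per the file headers. The command sets no strand option, so genes overlapping on opposite strands cannot be separated. The submitters' processing notes also name STAR and FastQC, with no version.

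The 9 members and all gene lists were chosen with earlier results of these data known. KO was compared with WT over all genes with edgeR 4.0.16 in R 4.3.3 (TMM factors, filterByExpr, quasi-likelihood test, genotype as the only term), with Benjamini-Hochberg adjustment over 14214 genes and a threshold of 0.05. SEs were derived from the log2 fold change and its F statistic. A second fit replaced TMM with the summed counts of 17 B cell genes. CPM uses TMM-scaled library sizes, log2 CPM a prior count of 2, and RPKM the exon length in the files. Bounds on counts of 0 cover counting error only. Named genes were the 9 members, their relatives and partners, Tox, up to 4 of the most abundant and up to 4 called genes of each list, and the 5 with the closest profile. Prdm1, Irf4, Pim2 and list genes with an ERSE were named after their values were seen. Alternatives used DESeq2 1.42.0, limma-voom (limma 3.58.1), other scalings, filters, blocks and library sets. Every pair of libraries of 1 group differed by more than sampling noise. The procedure was tested on simulated data.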

Additional observations from a re-analysis of the deposited data

Results flagged for a closer look

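Jchain in KO replicate 6 stood apart from the other KO libraries, at 15.4 CPM, with a gap to the next library of 0.922 of the group's range. The other 5 KO libraries held 0 to 1.21 CPM. That library also had the highest Igkc of the KO group (279 CPM) and the highest Mzb1 (22.4 CPM). Among the groups of 4 or 6 libraries examined for the 9 genes, 17 in all, this was the single value so marked, and chance marks about 5% of groups. Without KO replicate 6 the log2 fold change of Jchain was -11.59 (edgeR adjusted p = 0.013).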

How the results depend on the processing

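The count of members lower in KO was 4. It became 2 at a threshold of 0.01 and 1 within library numbers 1 to 3, and ranged over 2 to 5 in fits without 1 library, with 2 without KO replicate 1, WT replicate 2 or WT replicate 4. It stayed within 1.5 times of 4 with RLE factors, library size only, immunoglobulin genes out of the scaling, scaling to T cell receptor genes, other filters, DESeq2, limma-voom, library numbers 4 to 8 and a term for library set. The 6 in numbers 4 to 8 include Sdc1 and Tnfrsf17, and the 5 without WT replicate 1 include Tnfrsf17. Each of these was at 0 in every KO library of its fit. No setting called a member higher in KO. Relative to the B cell genes the count of lower members was 1, became 2 with no filter and 4 within library numbers 4 to 8, and ranged over 0 to 3 without 1 library (0 without WT replicate 4, 2 without KO replicate 6, 3 without WT replicate 1). Tnfrsf17 is in the counts with no filter, within numbers 4 to 8 and without WT replicate 1, and Sdc1 in that within numbers 4 to 8, each at 0 in all KO libraries of the fit. The count of higher members was 4, with 3 to 4 without 1 library.

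Over all genes, 384 lower calls became 1862 with scaling to T cell receptor genes, 999 with DESeq2, 680 with limma-voom, 1033 in library numbers 4 to 8, 79 in numbers 1 to 3 and 121 at a threshold of 0.01, with 143 to 1201 without 1 library. The 61 higher calls became 17 with scaling to T cell receptor genes, 39 with no filter, 613 with DESeq2, 204 with limma-voom, 121 within numbers 4 to 8, 316 within numbers 1 to 3, 116 with a term for library set and 7 at a threshold of 0.01, with 10 to 443 without 1 library. The extremes came without WT replicate 4 and without WT replicate 1.

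Correlations between libraries could not show whether the replicate numbers of the labels pair the samples, because they followed the library sets. Same-numbered libraries had correlations of 0.29, -0.25, -0.22 and 0.30. KO replicates 1, 2 and 3 had 0.29 to 0.32 with WT replicate 1. KO replicates 4, 5 and 6 had 0.13 to 0.30 with WT replicates 2, 3 and 4. Every pair across the sets was negative. Pairs that shared a library number had 0.32 and 0.13. With the replicate numbers of the labels as a block, or with the library numbers, edgeR called 0 members and 0 genes in either direction. At an unadjusted p under 0.05, 4 members were lower in each. With the label block the log2 fold changes were -6.37 for Mzb1 (adjusted p = 0.094), -7.84 for Fkbp11 (0.18), -12.91 for Jchain (0.056) and -2.94 for Pou2af1 (0.11), and relative to the B cell genes Derl3 was no longer called (2.78, 0.12). Fewer residual degrees of freedom enter such fits, and only libraries that share a number inform the genotype term. With library numbers these are KO replicate 2 with WT replicate 1 and KO replicate 5 with WT replicate 3. With label numbers, KO replicates 5 and 6 have no WT partner.

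The fold changes that changed sign belonged to members with no call in the fit of all libraries. That of Xbp1 was -0.63 with the library number block (resting on libraries that share a number), -0.20 within numbers 4 to 8 and -0.05 with a term for library set. That of Derl3 was 2.42 with that block and 6.56 within numbers 1 to 3. That of Creld2 was -0.29 with scaling to T cell receptor genes, -1.28 with that block, -0.56 within numbers 1 to 3, -0.22 with the term, -0.12 without WT replicate 2 and -0.03 without WT replicate 4, within a range of -0.12 to 1.31 without 1 library. Relative to the B cell genes, Sdc1 was -0.12 with scaling to immunoglobulin constant genes, -1.67 with the label block, -11.20 within numbers 4 to 8 (adjusted p = 0.0013, with all 3 KO libraries at 0, so that the value is no estimate) and -0.79 without KO replicate 1, within a range of -0.79 to 1.96 without 1 library. The cause was not tested. Depth limits Tnfrsf17 and Fkbp11 in KO, with 0 and at most 30 counts per library.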
